A study of Mus musculus with 14 samples.

Results

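Macrophages build fatty acids from citrate-derived acetyl-CoA, then lengthen and desaturate them. The 10 genes described here encode enzymes of that route and its regulator: the desaturases Scd1, Scd2, Fads1 and Fads2, the elongases Elovl5 and Elovl6, the synthesis enzymes Fasn, Acaca and Acly, and the transcription factor gene Srebf1. They were chosen by name out of 55414 genes in the count table, at a time when their values in 4OHT against ctrl and in the dependence of the 4OHT difference on Ferrostatin-1 (Fer-1) were known. Those contrasts are therefore given as a description, with no p-value for a member. All 10 genes were found and all 10 were among the 12851 genes that passed the filter on low counts.

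Primary bone marrow-derived macrophages (pBMDMs) of wild-type mice received filtered supernatants for 24 h. The supernatants came from Pfa1 cells, a line of mouse embryonic fibroblasts (MEFs) that loses Gpx4 when given 4-hydroxytamoxifen (4OHT). Loss of this lipid hydroperoxide reductase kills the MEFs by ferroptosis, and the radical scavenger Fer-1 prevents that death. The 5 groups were supernatant of untreated MEFs (ctrl, 3 libraries), of ferroptotic MEFs given 4OHT (3 libraries), of MEFs given 4OHT and Fer-1 (4OHT+Fer1, 3 libraries), of MEFs given Fer-1 alone (Fer1, 3 libraries), and fresh medium (2 libraries, with replicate numbers 1 and 2 only). The macrophages themselves carried no deletion. The labels give DMEM with 10% FBS for all groups, and the study's methods add M-CSF. Those methods name RPMI for primary BMDMs and DMEM for Pfa1 MEFs, so the base of the fresh medium is not settled. The groups differed in what was put on the cells, including any 4OHT or Fer-1 carried over with a supernatant. The MEFs are a single line, and nothing in the labels says whether replicates came from separate supernatant collections; the replicate number was taken as the mouse, because the study's methods place mouse identity in their model. If the numbers mark cultures rather than animals, the p-values measure only the spread between these cultures. In either case they cover the spread between supernatant collections only if the replicates came from separate ones.

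The libraries held 7823051 to 11052352 counted reads. All 9 macrophage markers checked, among them Adgre1, Csf1r and Lyz2, were present in every group, with summed levels between 19485 and 44539 CPM. Lyz2 alone measured between 13967 and 36193 CPM, so the sum says little of the other markers. By the thresholds given below, Mrc1 was lower in medium than in ctrl (log2 fold change -2.27, SE 0.31). In 4OHT against medium Mrc1 was higher (1.93, SE 0.30) and Fcgr1 lower (-1.11, SE 0.22). In 4OHT against ctrl 0 of the 9 passed. CPM is a gene's count scaled to the library's total over the genes past the filter, times a normalisation factor (TMM). All 5 adipocyte markers (Adipoq, Plin1, Cidec, Lep, Pck1) were at 0 counts in all libraries. The 11 fibroblast markers summed to between 17.6 and 129 CPM, with overlapping ranges in the 5 groups. Of the 6 that passed the filter, Col1a1 and Col1a2 were higher in medium than in ctrl (log2 fold changes 1.17 and 1.22). Both were lower in 4OHT than in medium (-1.53 and -1.14), and Col1a1 was lower in 4OHT than in 4OHT+Fer1 (-1.14). In 4OHT against ctrl and in medium against the supernatants with Fer-1, 0 of the 6 passed. The 6 neutrophil markers summed to between 34.3 and 47.2 CPM in medium and to between 2.87 and 25.3 CPM in the supernatant groups, with Ly6g and Elane at 0 in all libraries. The 5 dendritic cell markers summed to between 0 and 1.49 CPM, and none of the 5 was at 0 in all libraries. These are bulk libraries, in which fewer cells of a type and less RNA per cell cannot be told apart.

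The textbook order of the route is as follows. Acly cleaves citrate to cytosolic acetyl-CoA, Acaca carboxylates it to malonyl-CoA, and Fasn assembles palmitate from both. Elovl6 lengthens palmitate and palmitoleate, and Scd1 and Scd2 put the first double bond into saturated chains. Fads2 and Fads1 desaturate dietary polyunsaturated fatty acids in successive steps, with Elovl5 lengthening the intermediates between them. Srebf1 encodes SREBP1, a membrane-bound transcription factor that induces most of these enzymes when it is released from its anchor, and its isoform SREBP1c is itself induced by liver X receptors. In macrophages the products enter membrane phospholipids, cholesteryl esters and the precursors of lipid mediators.

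The promoters of Fads2 and Fasn are shown because, of the members with a promoter in the RefSeq table, they were the desaturase and the synthesis enzyme with the lowest fitted values in fresh medium. The windows run from 250 bases before to 50 bases after the start site on GRCm38.p6, both on the minus strand, Fads2 at chr19:10101454-10101753 and Fasn at chr11:120824498-120824797. Capitals mark CCAAT and CCGCCC on either strand; in the Fasn promoter the capital run of 8 bases holds CCAAT on both strands, overlapping by 2 bases.
Fads2 promoter: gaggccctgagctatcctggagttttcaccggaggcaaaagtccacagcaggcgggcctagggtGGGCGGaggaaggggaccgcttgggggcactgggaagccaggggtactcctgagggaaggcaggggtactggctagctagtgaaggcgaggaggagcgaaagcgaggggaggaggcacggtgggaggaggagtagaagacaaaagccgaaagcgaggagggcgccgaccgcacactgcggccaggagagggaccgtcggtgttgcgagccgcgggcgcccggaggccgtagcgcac
Fasn promoter: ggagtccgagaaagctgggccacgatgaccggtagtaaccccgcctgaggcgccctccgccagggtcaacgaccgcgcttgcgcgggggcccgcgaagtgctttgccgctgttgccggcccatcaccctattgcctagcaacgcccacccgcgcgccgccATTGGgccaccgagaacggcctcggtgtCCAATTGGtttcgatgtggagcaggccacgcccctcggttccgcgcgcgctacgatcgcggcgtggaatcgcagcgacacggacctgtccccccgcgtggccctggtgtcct

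RefSeq promoters were present for 7 of the 10 genes, 9 windows in all (3 for Srebf1), but not for Scd1, Scd2 and Fads1. The letters of a sterol regulatory element, TCACNCCAC, on either strand occurred in 0 of these 9 windows and in 1.24% of all 32851 promoters of that length, and its inner part CACNCCA in 0 of 9 and 18.4%. CCAAT occurred in 5 of 9 windows (Elovl5, Srebf1 in 2 windows, Acly and Fasn) against 37.4% of all promoters. CCGCCC occurred in 4 of 9 (Srebf1 in 2 windows, Acly and Fads2) against 35.7%, and the E-box CACGTG in 1 of 9 (Elovl5) against 7.15%. For the 2 Srebf1 windows with CCGCCC, 0 GENCODE transcripts of the gene held the first bases after the start site. Of these 2 windows, 1 also holds CCAAT. A match describes letters in the window only.

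In GENCODE M21 on GRCm38 the 4 desaturase genes lie in 2 pairs on chromosome 19. Scd2 (44293674 to 44306864, plus strand) neighbours Scd1 (44394455 to 44407879, minus strand), and Fads2 (10062765 to 10101746, minus strand) neighbours Fads1 (10182888 to 10196877, plus strand). Acaca (84129672 to 84401651, plus strand), Acly (100476353 to 100528000, minus strand), Fasn (120805846 to 120824547, minus strand) and Srebf1 (60199089 to 60222581, minus strand) lie on chromosome 11, Elovl5 (77917364 to 77984519, plus strand) on chromosome 9 and Elovl6 (129532355 to 129638495, plus strand) on chromosome 3. All 10 are protein-coding. Scd1 and Scd2 shared no window of 50 bases over the last 500 bases of their transcripts, where these 3′ tag libraries are read, and neither did the other members except Elovl6 and Acaca. Of their windows, 8.73% in Elovl6 (with Gm11295) and 22.4% in Acaca (with Gm5182) also occurred in another gene, so tags of these members could be split. Rai1 overlaps Srebf1, Gm35986 overlaps Elovl6 and Gm11437 overlaps Acaca on the opposite strand. The strand setting of the counting is not given in the sources used here. On the same strand, Gm43072 overlaps Elovl6, Gm37391 overlaps Acaca, and microRNA genes overlap Scd2, Fads1, Acly and Srebf1.

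In these libraries a transcript gives about 1 tag whatever its length, so CPM can be compared between genes. In the ctrl macrophages the highest mean levels were those of Fads1 (105 CPM ± 17.5), Scd2 (89.1 ± 59.3), Acly (83.1 ± 18.8), Elovl5 (61.1 ± 9.0), Fasn (60.8 ± 32.6) and Fads2 (46.9 ± 24.9; SD, n = 3). Elovl6 (24.3 ± 4.92), Acaca (16.5 ± 6.90), Scd1 (10.6 ± 8.95) and Srebf1 (8.77 ± 3.92; SD, n = 3) were lower. Of the paired desaturases, Scd2 was the more abundant stearoyl-CoA desaturase transcript in each of the 14 libraries. The large SDs of Scd1, Scd2, Fads2 and Fasn go with low values in replicate 3, described below.

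**Figure D1:**
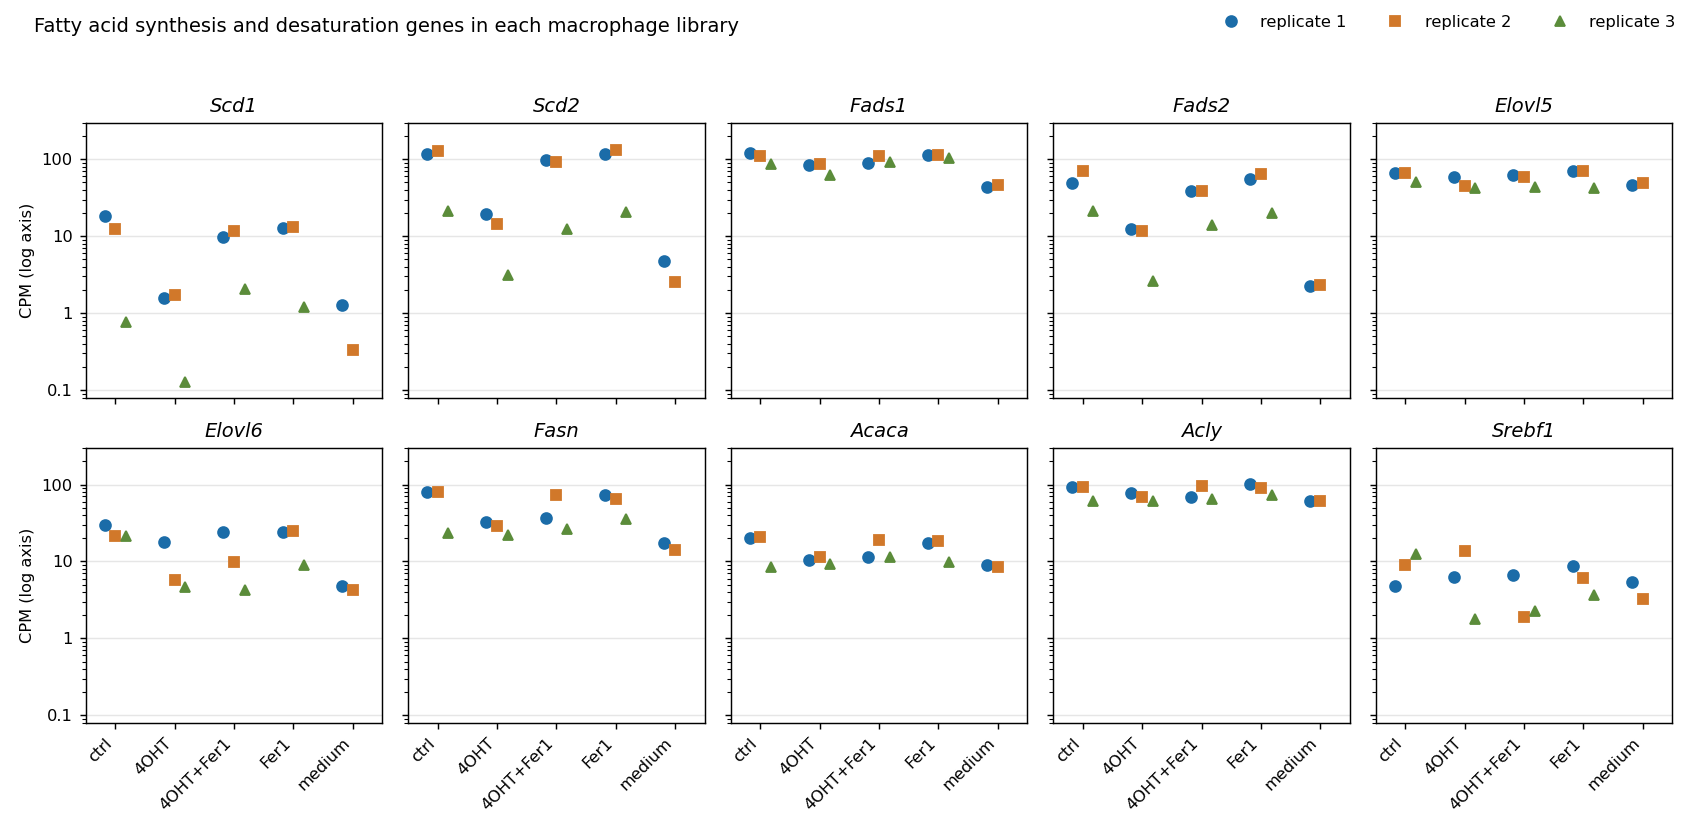
CPM (log axis, the same in all panels) of the 10 genes in each of the 14 macrophage libraries, by group along the x axis; the mark gives the replicate number and each point is 1 library. Scd1, Scd2 and Fads2 lie lowest in 4OHT and medium, Elovl5 and Acly move little, and the replicate 3 triangle lies below the other marks of its group for most genes.

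The first question was how these genes differ between fresh medium and supernatants of living MEFs. Fresh medium was compared with the mean of the 4OHT+Fer1 and Fer1 supernatants. Conditioning by the MEFs, any Fer-1 or 4OHT carried over and any difference in base medium cannot be told apart in this comparison. 4OHT against ctrl compares none of these libraries, but the spread and replicate terms come from 1 fit of all 14 libraries. The 4OHT+Fer1 and Fer1 libraries, as a difference, also enter the interaction known when the genes were chosen. In fresh medium 6 of the 10 genes were lower, all 4 desaturases together with Elovl6 and Fasn. Scd2 was lower by 29.3-fold, Fads2 by 21.4-fold and Scd1 by 16.3-fold. Elovl6 and Fasn were lower by 3.96- and 3.92-fold and Fads1 by 2.45-fold. Acaca, Acly, Elovl5 and Srebf1 did not pass both thresholds, a log2 fold change beyond 1 in size and an adjusted p below 0.05 (quasi-likelihood test of edgeR, adjusted by Benjamini-Hochberg over all 12851 genes). Of all genes tested, 4.29% were lower by the same rule. The median log2 fold change of the 10 genes was -1.63, against 0.02 for all genes. Without the replicate number in the model, 3 of the 10 passed (Scd2, Fads1 and Fads2), and without replicate 2, 2 passed (Scd2 and Fads2).

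Scd2, the stearoyl-CoA desaturase that is widely expressed outside liver, measured 4.83 and 2.56 CPM in medium. It measured 99.3, 92.2 and 12.6 CPM in 4OHT+Fer1 and 117, 132 and 20.9 CPM in Fer1, in the order of replicates 1, 2 and 3. Both medium libraries were below all 6 supernatant libraries (log2 fold change -4.87, SE 0.27, adjusted p = 1.90e-06, edgeR; exact two-sided permutation p = 0.0357, the smallest of the 28 regroupings). The exact test, here and for the genes below, treats the 8 libraries as independent although they share replicate numbers. Exchanging libraries only within replicates 1 and 2 leaves 9 arrangements and no exact p below 0.111.

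Fads2, the desaturase that starts the conversion of linoleic and alpha-linolenic acid, measured 2.29 and 2.34 CPM in medium. It measured 39.2, 39.1 and 13.9 CPM in 4OHT+Fer1 and 55.6, 64.7 and 20.3 CPM in Fer1. The groups did not overlap (log2 fold change -4.42, SE 0.26, adjusted p = 2.26e-06, edgeR; exact permutation p = 0.0357).

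Scd1, the stearoyl-CoA desaturase best known from liver and adipose tissue, measured 1.27 and 0.33 CPM in medium, from 10 and 3 counts. In 4OHT+Fer1 it measured 9.83, 11.7 and 2.05 CPM and in Fer1 12.8, 13.2 and 1.21 CPM. The replicate 3 library of Fer1, with 11 counts, lay within the range of medium, so the groups overlapped (log2 fold change -4.02, SE 0.50, adjusted p = 2.56e-04, edgeR; exact permutation p = 0.0714). Replicate 3 had no medium library to be set against it.

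Fads1, the desaturase that acts after Fads2, measured 44.2 and 45.8 CPM in medium. Its lowest value in the 6 supernatant libraries was 90.8 CPM and its highest 113 CPM, so the groups were apart with little spread in either (log2 fold change -1.29, SE 0.15, adjusted p = 1.67e-04, edgeR; exact permutation p = 0.0357).

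Of the elongases, Elovl6, which lengthens palmitate towards stearate, measured 4.83 and 4.23 CPM in medium. It measured 24.1, 9.77 and 4.30 CPM in 4OHT+Fer1 and 24.2, 24.8 and 9.03 CPM in Fer1, so that the replicate 3 library of 4OHT+Fer1 lay within the range of medium (log2 fold change -1.99, SE 0.43, adjusted p = 0.00860, edgeR; exact permutation p = 0.179). Elovl6 did not pass without the replicate number in the model (adjusted p = 0.148), without replicate 1 (0.156) or without replicate 2 (0.143, edgeR). Elovl5, which lengthens polyunsaturated chains, measured 45.7 and 49.5 CPM in medium and between 42.5 and 71.2 CPM in the supernatants with Fer-1 (log2 fold change -0.42, SE 0.15, adjusted p = 0.0945, edgeR). Its groups overlapped.

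Among the synthesis enzymes, Fasn, the multifunctional fatty acid synthase, measured 17.5 and 13.9 CPM in medium. In 4OHT+Fer1 it measured 36.4, 73.9 and 26.2 CPM and in Fer1 72.1, 63.9 and 36.0 CPM. Both medium libraries were below all 6 others (log2 fold change -1.97, SE 0.32, adjusted p = 0.00157, edgeR; exact permutation p = 0.0357). Acaca, the acetyl-CoA carboxylase that supplies malonyl-CoA, measured 9.02 and 8.57 CPM in medium and between 9.91 and 19.1 CPM in the supernatants with Fer-1. Acly, the ATP citrate lyase, measured 61.5 and 61.1 CPM in medium and between 64.4 and 101 CPM there. For both, medium was below all 6 libraries of these supernatants by a small margin, and the log2 fold changes of -0.92 (SE 0.26, adjusted p = 0.0375) and -0.54 (SE 0.16, adjusted p = 0.0463, edgeR) did not reach the fold threshold. The exact permutation p was 0.143 for Acaca and 0.107 for Acly. By the adjusted p alone 8 of the 10 genes were lower, and so were 6.33% of all genes.

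Srebf1, the regulator, did not pass. It measured 5.33 and 3.23 CPM in medium, 6.69, 1.91 and 2.25 CPM in 4OHT+Fer1 and 8.63, 6.15 and 3.63 CPM in Fer1. The ranges overlapped and the interval of the log2 fold change was wide, from -1.77 to 1.14 (estimate -0.32, SE 0.67, adjusted p = 0.819, edgeR), so that a difference of the size of the members' median is not excluded.

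**Figure D2:**
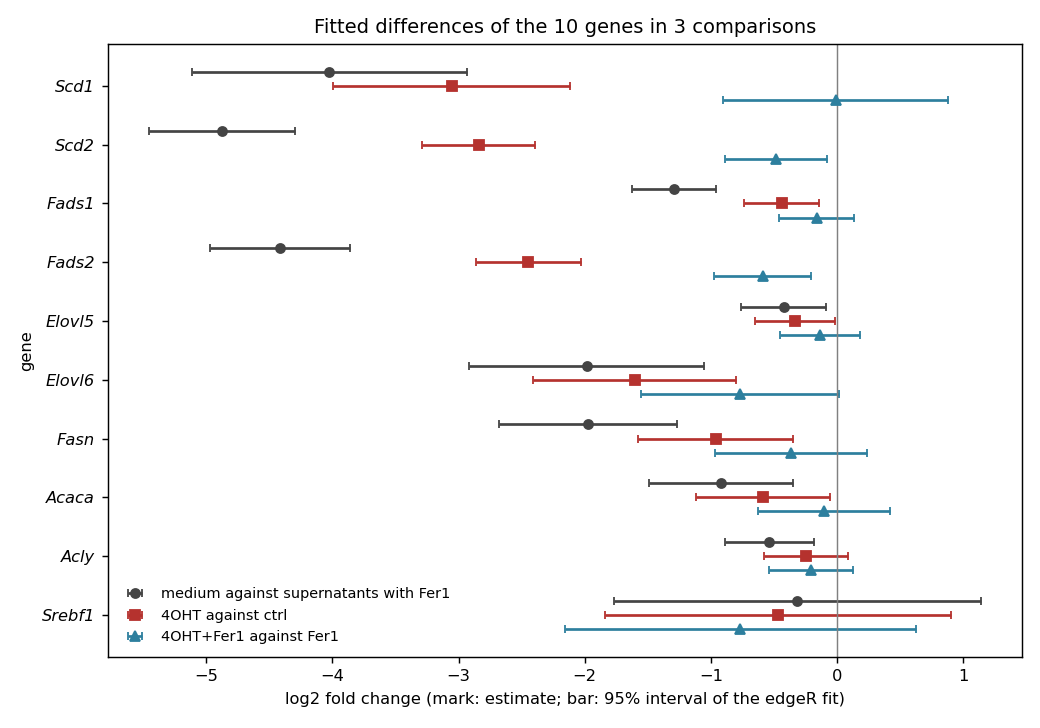
Fitted log2 fold changes of the 10 genes (x axis; marks are estimates and bars 95% intervals) in medium against the supernatants with Fer-1, in 4OHT against ctrl and in 4OHT+Fer1 against Fer1. In medium the estimates run from -4.87 for Scd2 to -0.32 for Srebf1, the 4OHT estimates of the same genes lie nearer to 0 except for Srebf1, and those of 4OHT+Fer1 against Fer1 run from -0.77 to -0.01.

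Against ctrl, whose libraries entered the choice of the genes, fresh medium gave the same list plus Acaca: 7 of 10 genes were called lower, as were 4.10% of all genes. The fitted log2 fold changes ran from -5.11 (SE 0.28) for Scd2, -4.72 (SE 0.27) for Fads2 and -4.13 (SE 0.52) for Scd1 to -0.51 (SE 0.17) for Elovl5, with Srebf1 at -1.38 (SE 0.77). Without the replicate number in the model 3 were called, without replicate 1, 3, and without replicate 2, 2. The comparison shares its medium libraries with the one above.

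Next, the ferroptotic supernatant was compared with that of untreated MEFs. These values brought the genes forward and are a description. All 10 fitted log2 fold changes of 4OHT against ctrl were below 0. Of the 10, 3 (Scd1, Scd2 and Fads2) were called lower, where 0.763% of all genes were. Nothing is read from these counts.

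Scd2 measured 118, 129 and 21.0 CPM in ctrl and 19.5, 14.6 and 3.16 CPM in 4OHT, in the order of replicates 1, 2 and 3 (log2 fold change -2.84, SE 0.21). Each 4OHT library was below all 3 ctrl libraries. Fads2 measured 48.6, 70.9 and 21.1 CPM in ctrl and 12.5, 11.8 and 2.66 CPM in 4OHT (log2 fold change -2.45, SE 0.19), again without overlap.

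Scd1 measured 18.3, 12.6 and 0.77 CPM in ctrl and 1.58, 1.72 and 0.13 CPM in 4OHT (log2 fold change -3.05, SE 0.43). Its groups overlapped across replicate numbers, since the replicate 3 libraries rested on 7 counts in ctrl and 1 count in 4OHT, while within each number 4OHT was the lower.

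Elovl6 measured 30.0, 21.5 and 21.4 CPM in ctrl and 17.8, 5.80 and 4.68 CPM in 4OHT (log2 fold change -1.60, SE 0.37), with no overlap but outside the adjusted p threshold. Fasn measured 79.0, 80.2 and 23.2 CPM in ctrl and 32.8, 29.1 and 22.3 CPM in 4OHT (log2 fold change -0.96, SE 0.28). Its difference was present in replicates 1 and 2, at -1.26 and -1.46 on the log2 CPM scale, and near 0 in replicate 3, at -0.06.

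Fads1 measured 119, 111 and 85.8 CPM in ctrl and 85.6, 85.8 and 62.1 CPM in 4OHT (log2 fold change -0.44, SE 0.14), with differences of -0.48, -0.38 and -0.46 on the log2 CPM scale within replicates 1, 2 and 3. Acaca measured 20.0, 20.9 and 8.50 CPM in ctrl and 10.4, 11.4 and 9.36 CPM in 4OHT (log2 fold change -0.59, SE 0.24), and like Fasn was lower in replicates 1 and 2 only. Elovl5 measured 66.7, 65.8 and 50.7 CPM in ctrl and 58.5, 44.9 and 41.9 CPM in 4OHT (log2 fold change -0.33, SE 0.15). Its groups overlapped.

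Acly measured 94.1, 93.8 and 61.4 CPM in ctrl and 77.4, 69.4 and 60.9 CPM in 4OHT (log2 fold change -0.24, SE 0.15). Srebf1 measured 4.76, 8.95 and 12.6 CPM in ctrl and 6.22, 13.9 and 1.77 CPM in 4OHT (log2 fold change -0.47, SE 0.63). For Srebf1 the 4OHT library was the higher in replicates 1 and 2 and the lower in replicate 3. The calls in this comparison rest on the replicate number: without it in the model, with only these 2 groups fitted, or without replicate 2, 0 of the 10 genes were called.

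Whether Fer-1 given to the MEFs altered the 4OHT difference was asked by setting 4OHT+Fer1 beside Fer1, and by the interaction, the 4OHT difference without Fer-1 minus that with it. The first of these compares no 4OHT or ctrl library, but its spread and replicate terms come from the fit of all 14 libraries. Its libraries also enter the interaction that was known when the genes were chosen. In 4OHT+Fer1 against Fer1, 0 of the 10 genes passed (edgeR, adjusted p = 1 for each), where 0.0233% of all genes did. All 10 fitted log2 fold changes were below 0, from -0.77 (SE 0.36) for Elovl6 to -0.01 (SE 0.41) for Scd1. Their median was -0.29, against 0.01 for all genes, and the share of all genes below 0 was not counted. Apart from Srebf1 the genes were correlated over the libraries, so their signs are not separate observations. Before adjustment, 2 genes had p under 0.05, Fads2 (log2 fold change -0.59, 95% interval -0.97 to -0.21, unadjusted p = 0.00583) and Scd2 (-0.48, -0.89 to -0.08, unadjusted p = 0.0221, both edgeR); 266 of the 12851 genes did. For Fads2 and for Scd2, 4OHT+Fer1 was the lower library in replicates 1, 2 and 3. DESeq2 called 0 of the 10 genes.

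In the interaction, which entered the choice, Scd1 (-3.04, SE 0.56), Scd2 (-2.36, SE 0.27) and Fads2 (-1.86, SE 0.26) had the lowest estimates. Scd2 and Fads2 were called at an adjusted p under 0.05, as were 0.0233% of all genes in the lower direction; nothing is read from that count. The other 7 estimates ran from -0.84 (SE 0.51) for Elovl6 to 0.30 (SE 0.90) for Srebf1. For Acly, at -0.04, the 95% interval ran from -0.51 to 0.43. Without the replicate number in the model, without replicate 1 or without replicate 2, 0 genes were called; without the medium libraries or without replicate 3, 1 was.

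**Figure D3:**
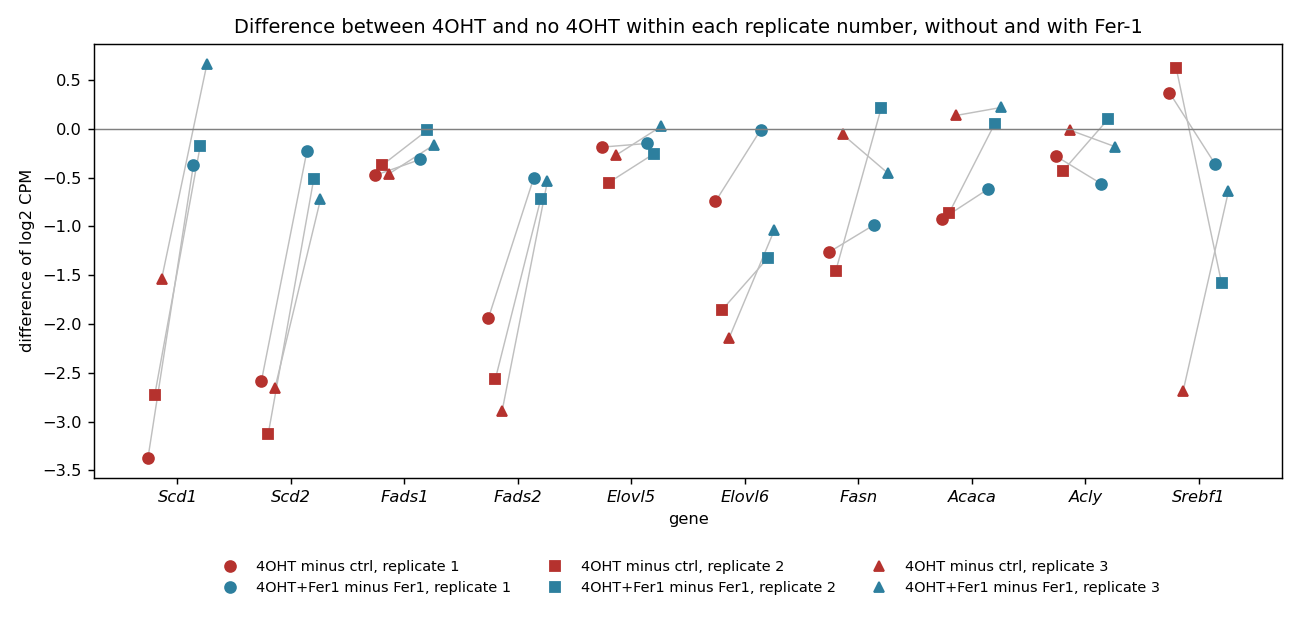
Difference of log2 CPM (y axis) between 4OHT and ctrl (red) and between 4OHT+Fer1 and Fer1 (blue) for each gene, with a grey line joining the values of the same replicate number (circle 1, square 2, triangle 3). For Scd1, Scd2, Fads2 and, by a smaller margin, Fads1, all 3 red points lie below all 3 blue points. For the other genes, among them Acly and Srebf1, red and blue points overlap. Scd1 in replicate 3 rests on 1 to 20 counts per library.

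The same pattern is seen when 4OHT is set against 4OHT+Fer1, which shares the 4OHT libraries: Scd1 (-2.95, SE 0.44), Scd2 (-2.37, SE 0.20) and Fads2 (-1.85, SE 0.19) were called lower, 3 of 10 genes where 0.731% of all genes were, and the other 7 estimates lay between -0.61 (SE 0.28) for Fasn and 0.99 (SE 0.65) for Srebf1. None of the 10 was called without the replicate number in the model, without replicate 1 or without replicate 2. Elovl6, at -0.38 (SE 0.37) here against -1.60 for 4OHT against ctrl, was low in 4OHT+Fer1 too, with 24.1, 9.77 and 4.30 CPM.

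Fer-1 without 4OHT was tested against ctrl, which shares the ctrl libraries used in the choice. In Fer1 against ctrl, 0 of the 10 genes passed (edgeR, adjusted p = 1 for each), and 0% of all genes did. At an unadjusted p under 0.05 there were 146 genes and 0 of the 10, and DESeq2 called 0 of the 10. Log2 fold changes ran from -0.69 (SE 0.62) for Srebf1 to 0.09 (SE 0.15) for Acly. For Scd2 the 95% interval ran from -0.39 to 0.41 and for Fads2 from -0.39 to 0.37. For Scd1, with fewer counts, it ran from -0.87 to 0.68.

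In 4OHT+Fer1 against ctrl, 0 of the 10 genes passed, where 0.0311% of all genes did (lowest adjusted p among the 10 of 0.948, edgeR). All 10 estimates were below 0, with a median of -0.26 against 0.03 for all genes. Of the 10, 4 had an unadjusted p under 0.05 (edgeR), as had 554 of the 12851 genes, and DESeq2 called 0. These 4 were those of Srebf1 (-1.45, 95% interval -2.87 to -0.03), Elovl6 (-1.22, -2.01 to -0.43), Fads2 (-0.60, -0.98 to -0.21) and Scd2 (-0.48, -0.88 to -0.07), and the others lay between -0.35 and -0.10.

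The 4OHT supernatant and fresh medium gave the 2 lowest levels of Scd2 and Fads2. In replicates 1 and 2 the order of groups for both genes was ctrl and Fer1 highest, then 4OHT+Fer1, then 4OHT, then medium, and in replicate 3, which has no medium, the first 4 stood in the same order. Fer1 and ctrl changed places between replicates and genes. The 4OHT level of Scd2 was above medium by a log2 fold change of 2.27 (SE 0.26) and that of Fads2 by 2.27 (SE 0.26). All 10 estimates of 4OHT against medium were above 0, from 0.17 for Elovl5, with a median of 1.00 against 0.01 for all genes. Scd2 and Fads2 were the 2 genes called higher, where 1.42% of all genes were. These values share libraries with those that chose the genes. Without the replicate number in the model, without replicate 1 or without replicate 2, 0 were called.

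Replicate 3 was low for most of these genes. How many of all genes were lower in replicate 3 was not counted, so the pattern is not shown to be particular to the 10 genes. Scd1, Scd2, Fads2, Fasn, Elovl5, Elovl6 and Acly were lower in replicate 3 than in both other replicates in all 4 supernatant groups, Acaca and Fads1 in 3 of 4 groups and Srebf1 in 2 of 4. In ctrl the mean of replicates 1 and 2 over replicate 3 was 20.0-fold for Scd1 and 5.87-fold for Scd2. It was 3.43-fold for Fasn and 2.83-fold for Fads2, but 1.31-fold for Elovl5. For Srebf1 the ratio in ctrl was 0.54, with replicate 3 the highest of the group. The difference was shared by the groups for Scd2, at 5.87, 5.39, 7.60 and 5.94 in ctrl, 4OHT, 4OHT+Fer1 and Fer1. No label says how replicate 3 differed. Without replicate 3, 6 of the 10 genes passed in medium against the supernatants with Fer-1, as with it.

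The lists of related genes put these values in context. They were drawn up with results of these data known. A list of other fatty acid synthesis genes held 25 tested genes. In medium against the supernatants with Fer-1, 3 of them were lower (4.29% of all genes were) and 0 were higher. Of the 25, 22 had a log2 fold change below 0, and the list median was -0.24. The 3 were Acsl3 (-1.41), an acyl-CoA synthetase, Aacs (-1.30), a cytosolic acetoacetyl-CoA synthetase, and Mid1ip1 (-1.15), which promotes polymerisation of acetyl-CoA carboxylase. Acss2, the cytosolic acetyl-CoA synthetase (-0.26), Acsl4, the synthetase for arachidonic acid (-0.24), and Me1, a source of NADPH (-0.80), did not pass (adjusted p = 0.511, 0.249 and 0.0796, edgeR).

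Of 14 tested regulators, 1 was lower and 2 were higher, where 3.94% of all genes were higher. Insig1, which holds SREBPs in the endoplasmic reticulum and is itself an SREBP target, was lower (-1.15, SE 0.16, adjusted p = 6.18e-04). Nr1h3, which encodes liver X receptor alpha, was higher (2.10, SE 0.24, adjusted p = 1.56e-04), and so was Pparg (2.26, SE 0.50, adjusted p = 0.0104, edgeR). Nr1h3 measured 21.7 and 19.5 CPM in medium against 4.39, 6.37 and 11.3 CPM in 4OHT+Fer1 and 4.76, 4.17 and 8.81 CPM in Fer1, with no overlap. Srebf2, which encodes the SREBP of the cholesterol pathway, had a log2 fold change of -0.72 (adjusted p = 0.080, edgeR).

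Cholesterol synthesis genes were lower in 18 of 22 tested, with a median of -1.61. Acat2 (-2.58), Fdps (-2.45), Sqle (-2.36) and Mvd (-2.01) were among the lowest values, while Hmgcs1, the cytosolic HMG-CoA synthase, was at -1.46. Of 15 lipid assembly and uptake genes, Lpl, the lipoprotein lipase, was higher (1.49) and Fabp5, a fatty acid binding protein, lower (-1.25), and Plin2, a lipid droplet coat protein, did not reach the fold threshold (0.92). Of 17 fatty acid oxidation genes, 1 was higher, Angptl4 (1.55), which inhibits lipoprotein lipase, and 0 were lower; Cpt1a, which admits fatty acids to mitochondria, was at 0.86.

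**Figure D4:**
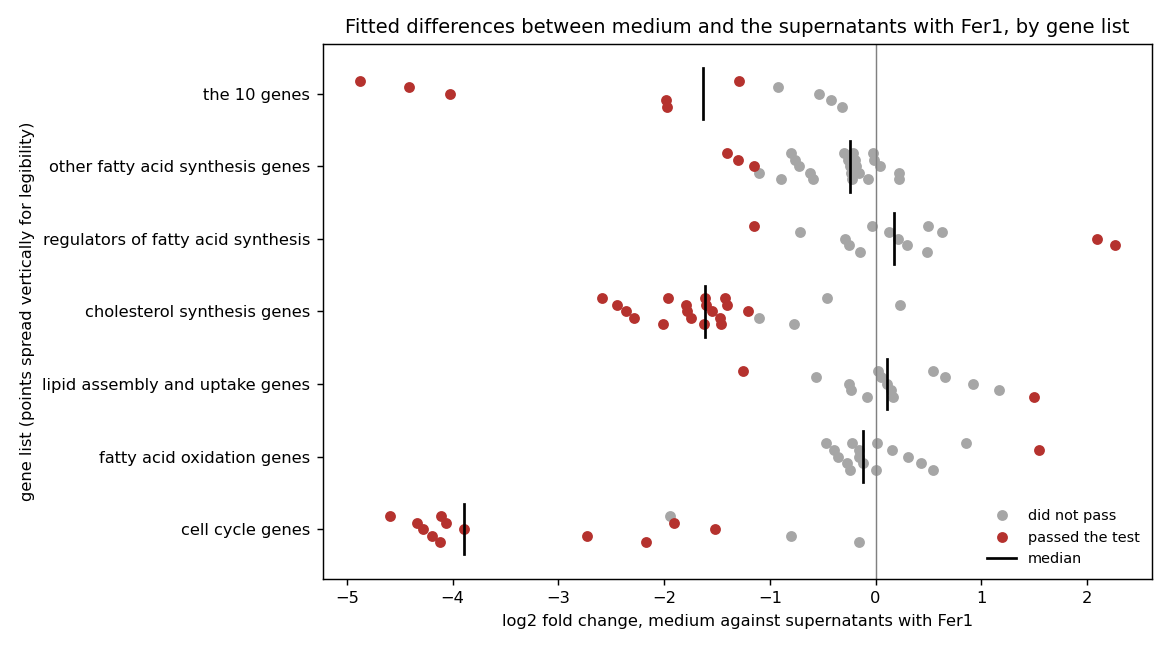
Log2 fold change (x axis) of medium against the supernatants with Fer-1 for each tested gene of 7 lists; each point is a gene, red where it passed both thresholds, and the black line is the list's median. The 10 genes (median -1.63) and the cholesterol synthesis genes (-1.61) lie left of 0, and the cell cycle genes further left (-3.89). The medians of the other 4 lists run from -0.24, for the other fatty acid synthesis genes, to 0.17. Of the other fatty acid synthesis genes, 22 of 25 lie below 0.

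In 4OHT against ctrl, 0 of the 25 other fatty acid synthesis genes were called and the list median was -0.23. Among the regulators Insig1 was lower (-1.11, SE 0.15) and Nr1h3 higher (1.37, SE 0.27). Of the 22 cholesterol synthesis genes 7 were lower, with a median of -0.90, led by Idi1 (-1.81), Lss (-1.77), Acat2 (-1.55), Sqle (-1.33) and Fdps (-1.25). Of the 15 lipid assembly and uptake genes and the 17 fatty acid oxidation genes, 0 were called. In 4OHT+Fer1 against Fer1, in Fer1 against ctrl and in 4OHT+Fer1 against ctrl, 0 genes of any of these lists were called. In the interaction 0 of them were called either. Insig1 there was at -0.59 (SE 0.21) and Nr1h3 at 1.07 (SE 0.37).

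Genes of cell division moved with the desaturases. The 15 cell cycle genes summed to between 1523 and 1757 CPM in ctrl, 393 and 971 in 4OHT, 1550 and 1808 in 4OHT+Fer1, 1440 and 1809 in Fer1 and 253 and 292 in medium. In medium against the supernatants with Fer-1, 12 of 15 were lower with a median of -3.89, and in 4OHT against ctrl 5 of 15 were lower with a median of -1.19. Mki67, a marker of cycling cells, stood at -4.28 and -1.46 in these comparisons. The cell cycle genes are not set out by replicate here. The part of cell cycle state in the values of the 10 genes was not tested.

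The genes most like single members were named by the correlation of log2 CPM over the 14 libraries after centring on the replicate number. For Scd2 they were Fads2 (r = 0.990), the cholesterol synthesis gene Nsdhl (0.986), the replication helicase gene Mcm3 (0.985), Fdps (0.984) and Cenpw (0.984), a centromere protein gene. For Scd1 they were Mcm5 (0.978), Uhrf1 (0.975), Brca2 (0.974), Dnajc9 (0.974) and Mak (0.973), and for Fasn they included the glycolytic genes Aldoc (0.983) and Pgk1 (0.975), Dbi (0.973) and Dhcr7 (0.972). Among the 10 genes, Fasn went most closely with Acaca (r = 0.96) and Acly (0.96), and Fads1 with Fads2 (0.96). Srebf1 had correlations between -0.09 and 0.45 with the other 9. The 14 points share 5 groups, so these values describe the group pattern and carry no test.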

How the data were processed

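RNA of 14 macrophage cultures was sequenced as QuantSeq 3′ tags in single-end reads. The authors aligned reads with STAR 2.7.10a and estimated counts per gene with Salmon 1.5.2 in an nf-core pipeline; the submitters' processing notes list GRCh38 and GRCm38, and the gene identifiers are mouse. The deposited expected counts are not scaled to library size, and were rounded to whole numbers here because 30109 values were not whole. A second deposited table, holding the authors' own fold changes and p-values and 14 columns of per-sample CPM, was not used.

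Counts were normalised by TMM, filtered with filterByExpr (minimum count 10) and fitted with edgeR 4.0.16 (quasi-likelihood test, R 4.3.3) over all 14 libraries, with group and replicate number as terms, since the study's methods place mouse identity in their design. Calls needed a log2 fold change beyond 1 in size with a Benjamini-Hochberg adjusted p below 0.05 over 12851 genes, and in the interaction at the adjusted p alone. SE is the log2 fold change divided by the root of the F statistic. Log2 CPM used a prior count of 2. Exact permutation tests were two-sided over the 28 regroupings of 2 against 6 libraries. No 2 libraries of a group differed by less than sampling noise. The fit was tested on simulated counts.

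The 10 genes, the lists and the tests were chosen with earlier results of these data known. Named were all 10 genes; from each list, genes called in a comparison, up to 5 by absolute log2 fold change; Insig1, Srebf2, Nr1h3, Acacb, Me1, Acss2, Acsl4, Cpt1a, Pdk4, Plin2 and Hmgcs1 in any case (Acacb and Pdk4 did not pass the filter on low counts); and for Scd2, Scd1 and Fasn the 5 most correlated genes without Gm or Rik names. Some genes that the rule names are not reported here. Alternatives were DESeq2 1.42.0, RLE size factors, no filter on low counts, no replicate term, fewer groups, the adjusted p alone and leaving out each replicate number. Depth limits the genes with few counts: the floor of 3 counts corresponds to between 0.27 and 0.38 CPM per library, for counting error only.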

Additional observations from a re-analysis of the deposited data

Results flagged for a closer look

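The 4OHT difference without Fer-1 minus that with Fer-1, the interaction, was past the adjusted p threshold for 2 of the 10 genes, and for 0.0233% of all genes in the lower direction. It is a description, since these values were known when the genes were chosen. For Scd2 the interaction was -2.36 (95% interval -2.95 to -1.77), from 4OHT against ctrl at -2.84 and 4OHT+Fer1 against Fer1 at -0.48. For Fads2 it was -1.86 (95% interval -2.42 to -1.30), from -2.45 and -0.59. In each of replicates 1, 2 and 3 the difference without Fer-1 was the lower for both genes. Scd1 had the lowest estimate of the 10, -3.04 (95% interval -4.26 to -1.82), and was not past the threshold. Without the replicate number in the model, without replicate 1 or without replicate 2, 0 of the 10 genes were. Beside them, the cell cycle genes summed to between 393 and 971 CPM in 4OHT and to between 1440 and 1809 CPM in the other 3 supernatant groups, and their part in the result was not tested.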

How the results depend on the processing

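Counts of called members moved with the replicate term and with single replicates left out. With no replicate block they were 3 in medium against the supernatants with Fer-1 (6 with it), 3 in medium against ctrl (7 with it), and 0 in 4OHT against ctrl, 4OHT against 4OHT+Fer1, the interaction and 4OHT against medium (3, 3, 2 and 2 with it). Pairing by number was checked on deviations from group means: the 26 same-numbered pairs had a median correlation of 0.25 and a lowest of 0.0022, 21 of them above 0.1, against a median of -0.14 for the 52 other pairs, and 13 of 14 libraries correlated best with one of their own number. Not every pair passed 0.1, so the pairing rests on the study's methods, with this as a hint. Fitting only the 2 groups gave 0 in 4OHT against ctrl, and leaving out the medium libraries gave 1 in the interaction; restricting the interaction to its own groups is that same fit. Leaving out each replicate gave 2 to 6 in medium against the supernatants with Fer-1, 2 to 7 in medium against ctrl, 0 to 4 in 4OHT against ctrl, 0 to 3 in 4OHT against 4OHT+Fer1, 0 to 1 in the interaction and 0 to 2 in 4OHT against medium. These fits have fewer libraries. All 3 comparisons with 0 members called kept 0 under every alternative run.

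In medium against the supernatants with Fer-1 all 10 genes were below 0 under every alternative run, with Scd2 between -5.35 and -4.41 and Fads2 between -4.49 and -4.03. Signs changed for uncalled values, most of them near 0. In 4OHT+Fer1 against Fer1, Scd1 was at 0.012 by DESeq2, and without single replicates it ran from -0.29 to 0.19 and Acaca from -0.28 to 0.12. In Fer1 against ctrl, Elovl5 was at 0.0064 and Fasn at -0.085 with no replicate block, and Fads2 at 0.00786 with only these groups. Without single replicates, values there ran from -0.066 to 0.085 for Elovl5, -0.044 to 0.14 for Fads1, -0.095 to 0.082 for Fads2, -0.23 to 0.21 for Fasn, -0.24 to 0.22 for Scd1 and -1.25 to 0.081 for Srebf1. In 4OHT+Fer1 against ctrl they ran from -0.48 to 0.11 for Acaca, -0.23 to 0.025 for Acly, -0.23 to 0.026 for Fads1 and -0.53 to 0.41 for Scd1. Among the contrasts given as a description, Srebf1 went from -0.47 to 0.55 in 4OHT against ctrl without replicate 3. Without replicate 2 it went from 0.99 to -0.16 in 4OHT against 4OHT+Fer1, from 0.92 to -0.14 in 4OHT against medium and from 0.30 to -0.91 in the interaction, Acly from -0.13 to 0.04 in 4OHT against 4OHT+Fer1, and in the interaction Acly from -0.04 to 0.24 and Fasn from -0.60 to 0.0053. The cause was not tested. Of all genes, 4OHT against ctrl called 143, 0 to 191 without single replicates and 0 to 283 under the other alternatives; medium against the supernatants with Fer-1 called 1057, 171 to 1172 and 625 to 1689. Scd1, with 1 to 20 counts in replicate 3, and Srebf1 are limited by depth and spread.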
